A study of Homo sapiens with 6 samples.

Results

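The transcripts described here are 9 short non-coding RNAs made by RNA polymerase III: RN7SL1, RN7SL2, RN7SK, RMRP, RPPH1, BCYRN1, RNU6-1, RNU6-2 and RNU6-9. They were taken by gene symbol from 46427 genes listed for each library. RNA was measured in 6 libraries of K562, a human erythroleukemia line labelled wild type. In 3 of them the cells had received the compound HR-19011 at 10 µM for 24 h, and in the other 3 they had received 0.1% DMSO as vehicle for 24 h. The study's title places the compound on the integrated stress response through HRI, a kinase that phosphorylates eIF2α, and the comparison asks how RNA levels differed after treatment. The labels do not give the DMSO share in the HR-19011 cultures, and they are silent on whether the 3 libraries of a group were separate cultures, so the p-values rest on a spread that may be technical.

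RNA polymerase III makes small stable RNAs that work as the core of ribonucleoprotein particles. Its promoters lie either inside the gene, where TFIIIC binds, or upstream of it, where the SNAPc complex binds. 7SL is the scaffold of the signal recognition particle, which brings ribosomes making secreted proteins to the endoplasmic reticulum. U6 sits in the catalytic centre of the spliceosome, 7SK holds the elongation kinase P-TEFb in an inactive complex, and RMRP and RPPH1 are the RNA parts of RNase MRP and RNase P, which process ribosomal and transfer RNA precursors. BCYRN1, also called BC200, descends from an Alu element and is best known as a translational regulator in neurons.

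A limit applies to every value. The libraries were made with a kit that selects polyadenylated RNA, and these transcripts lack stable poly(A) tails. The values therefore describe RNA that passed poly(A) selection, and they were not taken as cellular levels of the mature RNAs. Most of the 9 also have near-identical copies elsewhere in the genome, and the sources used here do not say how the authors divided reads that match several copies. Values are FPKM, fragment numbers scaled to transcript length and library size, so levels of different genes are compared per length, and the sequencing depth behind them is unknown. In bulk RNA, less RNA per cell and fewer cells that hold it cannot be told apart.

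The GENCODE 29 annotation on GRCh38 shows how far the copies can be told apart. RN7SL1 on chromosome 14, plus strand, and RN7SL2 on chromosome 14, minus strand, were identical in 295 of 300 aligned bases (98.3%), so reads that miss the few differing positions match both genes. The U6 copies could not be told apart at all. RNU6-1 on chromosome 15 and RNU6-2 and RNU6-9 on chromosome 19 were identical over their 107 bases, and 7 GENCODE transcripts in total carried this sequence.

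BCYRN1, on chromosome 2, plus strand, stood out among the 9 for its internal runs of A, of 11 and 10 bases. A made up 33% of its 200 bases, near the 29.9% of each of the 3 U6 copies. The longest A run of each of the other 8 had 4 bases or fewer. Among 15018 GENCODE transcripts of 100 to 350 bases, 152 (1.01%) held an A run of at least 11 bases. The first part of BCYRN1 aligned to the first part of RN7SL1 with 71 of 82 columns identical (86.6%), the Alu-related part that the RNAs share.

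RNA polymerase III transcripts were lower after HR-19011 for 7SL, BCYRN1 and U6, while 7SK passed the test in neither direction. Each gene averaging 1 FPKM or more across the 6 libraries was tested with limma on log2(FPKM + 1), and it was called at a Benjamini-Hochberg adjusted p under 0.05 over 11856 genes. Of the 9 transcripts, 7 were tested, and the lowest single value among those 7 was 1.06 FPKM, so none entered the test through one group alone. Of these, 6 were called lower and 0 higher. Over all tested genes 84.4% were called, 38.0% lower and 46.4% higher. The 7SL genes may share reads, as may the 3 U6 copies, so the 6 may not be separate measurements. With the 7SL pair and the U6 copies each summed, 3 were called, all lower: 7SL, U6 and BCYRN1. The 3 HR-19011 libraries lay below the 3 vehicle libraries in the same 6 transcripts, as they did for 38.3% of tested genes, and above them in 0, against 46.9% of tested genes. The median log2 fold change was -0.93 over the 7 tested transcripts, against 0.07 over all tested genes.

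**Figure D1:**
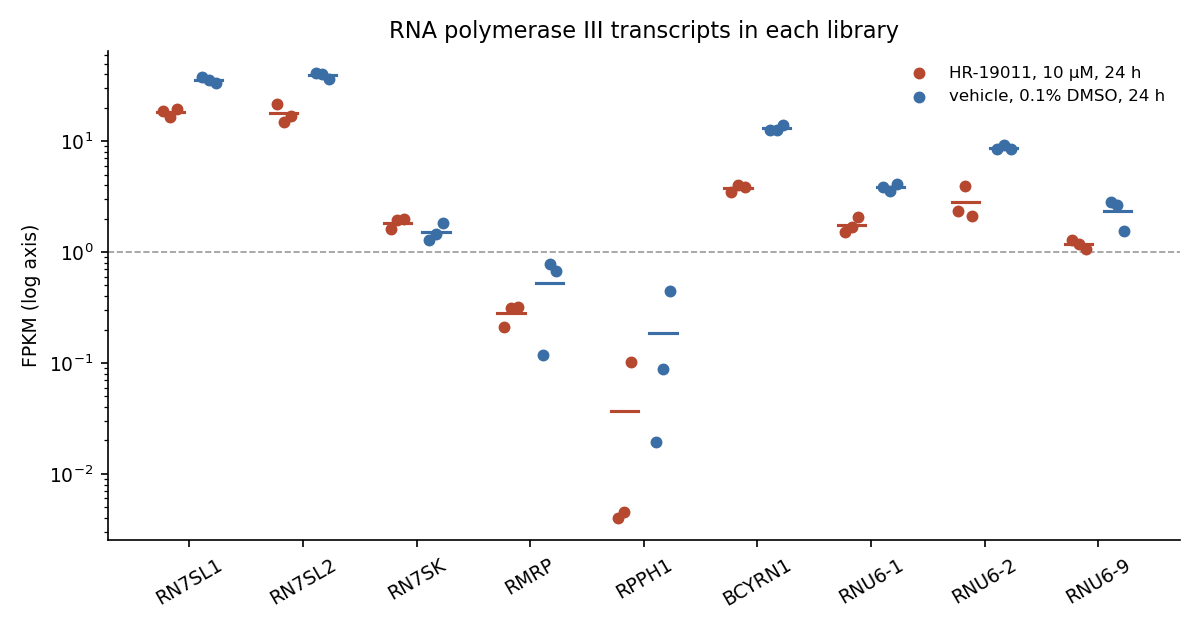
FPKM of the 9 transcripts (log axis) in the 3 HR-19011 libraries (left, red points) and the 3 vehicle libraries (right, blue points), with group means as bars and the test's minimum of 1 FPKM as a dashed line. RN7SL1, RN7SL2, BCYRN1 and the 3 U6 copies have all HR-19011 points below all vehicle points, RN7SK points overlap, and RMRP and RPPH1 lie below the dashed line.

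RN7SL1, a 7SL gene, had 18.7, 16.5 and 19.6 FPKM in HR-19011 libraries, against 37.9, 35.7 and 33.2 FPKM in vehicle libraries. Its group means were 18.2 ± 1.60 FPKM in HR-19011 libraries and 35.6 ± 2.37 FPKM in vehicle libraries (SD, n = 3 each), with a log2 fold change of -0.93 (SE 0.0673, limma adjusted p = 1.31e-06). The second 7SL gene, RN7SL2, had 21.8, 14.8 and 16.8 FPKM in HR-19011 libraries, against 41.1, 40.2 and 36.4 FPKM in vehicle libraries. In both genes every treated library lay below every vehicle library. RN7SL2 had a log2 fold change of -1.11 (SE 0.116, limma adjusted p = 1.74e-05), and its mean was 17.8 ± 3.61 FPKM in HR-19011 libraries and 39.2 ± 2.49 FPKM in vehicle libraries (SD, n = 3 each).

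Because the 7SL genes share nearly all their bases, they were also summed, which removes the effect of a split of reads within the pair. Reads that were dropped or given to other copies would still change the sum. The sum was 40.5, 31.3 and 36.3 FPKM in HR-19011 libraries, against 79.0, 75.9 and 69.6 FPKM in vehicle libraries, so vehicle was 2.08-fold higher. In a fit with the copies summed, the log2 fold change was -1.04 (SE 0.0849, limma adjusted p = 3.0e-06). RN7SL2 held 53.9%, 47.4% and 46.2% of the sum in HR-19011 libraries, against 52.1%, 52.9% and 52.3% in vehicle libraries. These shares overlapped between the groups and spread more among treated libraries.

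The wider 7SL family has 141 genes by symbol, most of them pseudogenes, of which 33 were above 0. Without RN7SL1 and RN7SL2 the family summed to 8.18 ± 0.50 FPKM in HR-19011 libraries and 10.7 ± 0.50 FPKM in vehicle libraries (SD, n = 3 each). RN7SL1 and RN7SL2 together made up 81.3% ± 2.91 of the family's FPKM in HR-19011 libraries and 87.5% ± 0.788 in vehicle libraries, and these shares did not overlap. RN7SL3, whose sequence was identical to RN7SL1 in 97.7% of bases, had 0.386, 0.541 and 0.690 FPKM in HR-19011 libraries, against 1.05, 1.22 and 1.06 FPKM in vehicle libraries. All 3 treated values of this minor copy lay below all vehicle values.

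RN7SL1 lies within RPS29, a ribosomal protein gene on the opposite strand. RPS29 had 480, 442 and 496 FPKM in HR-19011 libraries, against 472, 470 and 441 FPKM in vehicle libraries, and these values overlapped (log2 fold change 0.03, limma adjusted p = 0.492, of either sign across scalings). RN7SL2 lies within LOC105378179, a locus without a name in the reference table. That locus had 0.362, 0.416 and 0.588 FPKM in HR-19011 libraries, against 0.144, 0.124 and 0.132 FPKM in vehicle libraries, so it was higher in treated libraries at a level below the test's minimum.

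BCYRN1 had the lowest log2 fold change of the 9. It had 3.48, 4.06 and 3.86 FPKM in HR-19011 libraries, against 12.6, 12.6 and 14.0 FPKM in vehicle libraries. The treated values lay close together and far below all vehicle values. Its mean was 3.80 ± 0.294 FPKM in HR-19011 libraries and 13.0 ± 0.803 FPKM in vehicle libraries (SD, n = 3 each), so vehicle was 3.43-fold higher. The log2 fold change was -1.55 (SE 0.0603, 95% interval -1.69 to -1.41, limma adjusted p = 2.12e-08), and 1.46% of tested genes had a lower one. The 95% interval of RNU6-2, -1.73 to -1.04, held that of BCYRN1, and the order of these transcripts was not tested. EPCAM-DT, the long gene on the opposite strand within which BCYRN1 lies, was listed at 0 in all 6 libraries.

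BCYRN1 also has a copy with values near its own. BCYRN1P1, an annotated pseudogene on chromosome X, had 2.34, 2.90 and 3.14 FPKM in HR-19011 libraries, against 8.84, 8.90 and 9.68 FPKM in vehicle libraries, a log2 fold change of -1.42 (SE 0.0790, limma adjusted p = 2.13e-07). Reads of BCYRN1 and this copy may have been shared. Their sum was 5.82, 6.95 and 7.00 FPKM in HR-19011 libraries, against 21.4, 21.5 and 23.6 FPKM in vehicle libraries, so vehicle was 3.37-fold higher. All treated sums lay below all vehicle sums.

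The U6 copies were lower one by one and together. RNU6-2 had 2.34, 3.96 and 2.13 FPKM in HR-19011 libraries, against 8.46, 9.20 and 8.54 FPKM in vehicle libraries, a log2 fold change of -1.38 (SE 0.150, limma adjusted p = 2.24e-05). HR-19011 replicate 2 stood above the others of its group but far below vehicle. RNU6-1 had 1.53, 1.67 and 2.06 FPKM in HR-19011 libraries, against 3.86, 3.56 and 4.15 FPKM in vehicle libraries, with a log2 fold change of -0.82 (SE 0.0809, limma adjusted p = 1.13e-05). RNU6-9 had 1.29, 1.17 and 1.06 FPKM in HR-19011 libraries, against 2.85, 2.64 and 1.55 FPKM in vehicle libraries. Its vehicle replicate 3 was the lowest of its group and came near the highest treated library, and the log2 fold change was -0.60 (SE 0.141, limma adjusted p = 0.00335).

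Since these copies have one sequence, differences between them cannot be assigned to a locus from these values. The 3 copies summed to 5.16, 6.80 and 5.25 FPKM in HR-19011 libraries, against 15.2, 15.4 and 14.2 FPKM in vehicle libraries, a log2 fold change of -1.25 in a fit with the copies summed (SE 0.0864, limma adjusted p = 9.41e-07). Vehicle was 2.60-fold higher in this sum. Of the 7 loci with the same sequence, 6 were found in the files, among them the annotated pseudogenes RNU6-3P, RNU6-4P and RNU6-5P. Together the 6 summed to 9.50, 11.2 and 8.93 FPKM in HR-19011 libraries, against 26.4, 26.0 and 23.0 FPKM in vehicle libraries, and each of the 6 had all treated values below all vehicle values. RNU6-7 and RNU6-8 differ from RNU6-1 only in the last base, at position 107, so reads that miss it match all of them. RNU6-8 had 0.315, 0.248 and 1.04 FPKM in HR-19011 libraries, against 1.08, 2.17 and 0.278 FPKM in vehicle libraries, and these values overlapped. RNU6-7 also overlapped, with means of 0.0652 FPKM in HR-19011 libraries and 0.136 FPKM in vehicle libraries.

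The RNU6 family by symbol held 174 genes, with 44 above 0. It summed to 15.7 ± 1.91 FPKM in HR-19011 libraries and 33.0 ± 2.19 FPKM in vehicle libraries (SD, n = 3 each). RNU6-1, RNU6-2 and RNU6-9 made up 36.5% ± 2.25 of it in HR-19011 libraries and 45.3% ± 1.25 in vehicle libraries, without overlap.

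**Figure D2:**
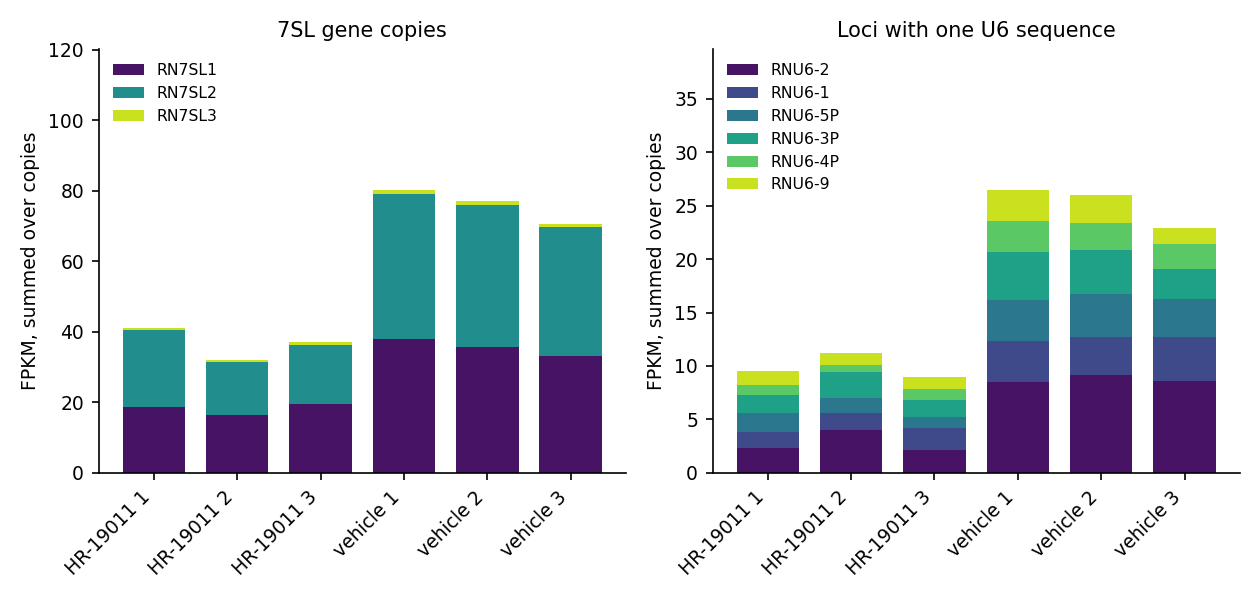
FPKM summed over gene copies in each library, with 7SL copies on the left and the 6 listed loci of one U6 sequence on the right. HR-19011 bars reach 31.8 to 40.9 FPKM for 7SL and 8.93 to 11.2 FPKM for U6, and vehicle bars reach 70.6 to 80.1 FPKM and 23.0 to 26.4 FPKM.

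RN7SK, at chr6:52995621-52995948 on the plus strand, did not follow 7SL and U6. It had 1.61, 1.93 and 1.99 FPKM in HR-19011 libraries, against 1.29, 1.45 and 1.84 FPKM in vehicle libraries. Vehicle replicate 3 lay within the treated range, and the means were 1.84 ± 0.206 FPKM in HR-19011 libraries and 1.53 ± 0.282 FPKM in vehicle libraries (SD, n = 3 each). The log2 fold change was 0.17 (SE 0.0912, 95% interval -0.04 to 0.38, limma adjusted p = 0.106). Its sign depended on scaling, with a value of -0.19 once quantile normalized and of 0.32 as TPM. Without vehicle replicate 3 it was 0.26 (limma adjusted p = 0.0192). With the RN7SK family of 13 genes summed, the log2 fold change was 0.14 (limma adjusted p = 0.0609). The lower end of the RN7SK interval, -0.04, lay above the upper ends of the intervals of the 6 called transcripts, of which the highest was -0.28 for RNU6-9. The difference between RN7SK and the others was not itself tested.

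RMRP and RPPH1 were listed far below the minimum for testing. RMRP, at chr9:35657751-35658018 on the minus strand, had 0.211, 0.316 and 0.323 FPKM in HR-19011 libraries, against 0.118, 0.779 and 0.677 FPKM in vehicle libraries. RPPH1, at chr14:20343075-20343407 on the minus strand, had 0.00400, 0.00452 and 0.102 FPKM in HR-19011 libraries, against 0.0194, 0.0884 and 0.447 FPKM in vehicle libraries. Both had overlapping groups, and both spread widely among vehicle libraries. In a fit without the minimum, over 26374 genes of which 18.5% were lower, RMRP had a log2 difference of -0.22 (SE 0.183, limma adjusted p = 0.395) and RPPH1 of -0.18 (SE 0.137, limma adjusted p = 0.359). Neither was called.

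Per length, the order of the levels was led by 7SL. In HR-19011 libraries it ran RN7SL1, RN7SL2, BCYRN1, RNU6-2, RN7SK, RNU6-1, RNU6-9, RMRP and RPPH1. Neighbours whose values overlapped there were the 7SL genes, BCYRN1 with RNU6-2, and RN7SK with RNU6-1. In vehicle libraries it ran RN7SL2, RN7SL1, BCYRN1, RNU6-2, RNU6-1, RNU6-9, RN7SK, RMRP and RPPH1. Overlapping neighbours there were the 7SL genes, RNU6-9 with RN7SK, and RMRP with RPPH1. RN7SK thus stood at rank 5 after HR-19011 and at rank 7 in vehicle. All 9 summed to 51.0, 44.4 and 47.9 FPKM in HR-19011 libraries, against 108, 106 and 101 FPKM in vehicle libraries.

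Short genes as a class were also lower. Genes that span under 500 bases, the 9 included, took 3.76% ± 0.0660 of summed FPKM in HR-19011 libraries and 5.91% ± 0.192 in vehicle libraries (SD, n = 3 each). With the 9 left out, 366 such genes were tested. Of these, 236 (64.5%) were lower and 43 were higher, and the median log2 fold change of the 366 was -0.67. Most of the lower ones were small nucleolar RNA genes, of which 149 of 176 were lower with a median of -0.99. The 190 other short genes had 87 lower and 37 higher with a median of -0.22. The part that short genes as a class play in the values of 7SL, U6 and BCYRN1 was not tested.

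Among these short genes, 6.56% had a lower log2 fold change than BCYRN1 and 12.6% a lower one than RNU6-2. The share was 25.1% for RN7SL2, 32.2% for RN7SL1, 38.8% for RNU6-1 and 54.9% for RNU6-9. RN7SK was at the other end, with 85.0% of short genes below it. On this scale BCYRN1 was therefore low among short genes and RNU6-9 near their middle. The added 1 shrinks the changes of low genes, so these places depend on level. By mean FPKM, vehicle was 1.99-fold higher for RNU6-9 and 1.95-fold higher for RN7SL1.

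**Figure D3:**
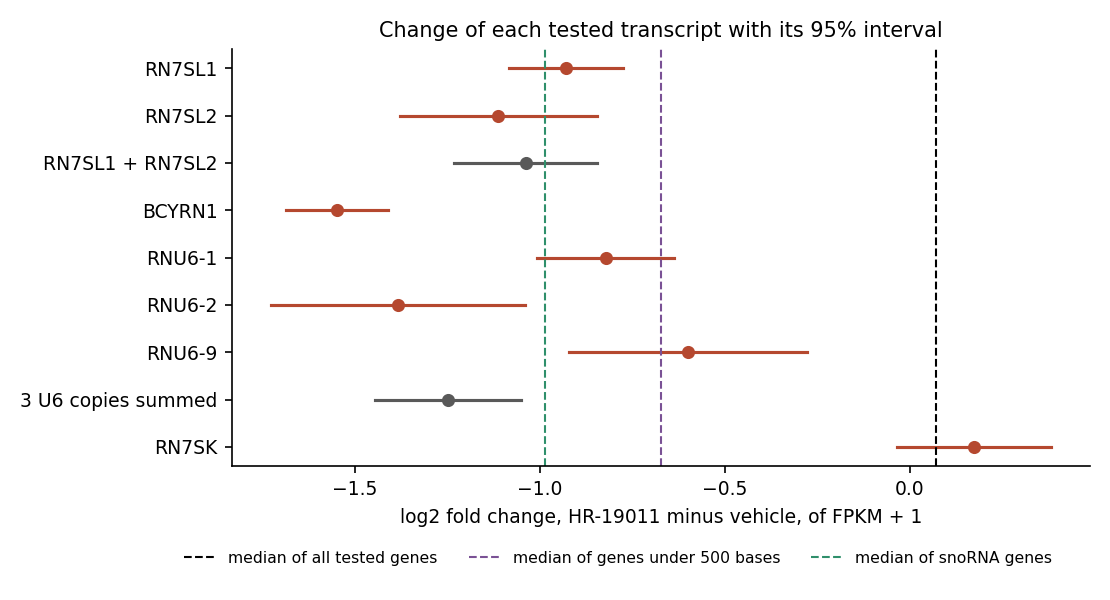
Log2 fold change (HR-19011 minus vehicle, of FPKM + 1) of each tested transcript with its 95% limma interval, in red, and of the summed 7SL and U6 copies, in grey. Dashed lines show the medians of all tested genes (0.07), of genes under 500 bases (-0.67) and of small nucleolar RNA genes (-0.99), and the BCYRN1 interval of -1.69 to -1.41 lies left of all 3.

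The mRNAs of proteins that bind these RNAs did not move in one direction across particles. Counts in this list and those that follow stand beside all tested genes, of which 84.4% were called, 38.0% lower and 46.4% higher. For the signal recognition particle and its receptor, all 8 genes were called, 6 higher and 2 lower, and their median log2 fold change was 0.28. SRPRA, the receptor subunit alpha, had 94.8 ± 2.23 FPKM in HR-19011 libraries and 56.2 ± 0.0947 FPKM in vehicle libraries (SD, n = 3 each), a log2 fold change of 0.74 (limma adjusted p = 1.39e-08). SRP54, the GTPase that binds signal sequences, rose by 0.59 on the log2 scale, and SRP19, needed to load SRP54 on 7SL, by 0.39. The lower pair was SRP9, at -0.20, and SRP14, at -0.09, which together bind the Alu part of 7SL. Neither of the pair was called as TPM or with equal totals over genes of at least 500 bases. With quantile normalization SRP9 was not called, and SRP14 turned to 0.07 and was called higher (limma adjusted p = 0.0281). Under TMM scaling over all genes above 0 the pair stayed lower, the higher genes were 4 and the median was 0.04, with SRP68 and SRPRB no longer called.

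The mRNAs of U6 proteins were mostly lower. Of 16 genes for U6 binding and maturation, 14 were lower, 1 higher and 1 not called, with a median log2 fold change of -0.43. SSB, the La protein that binds the terminal U run of new RNA polymerase III transcripts, had 111 ± 2.28 FPKM in HR-19011 libraries and 209 ± 12.5 FPKM in vehicle libraries (SD, n = 3 each), a log2 fold change of -0.91 (limma adjusted p = 6.44e-08). PRPF31 and PRPF4, proteins of the particle that joins U6 with U4 and U5, fell by 1.00 and 0.81 on the log2 scale. LSM8, the subunit that makes the Lsm ring specific for nuclear U6, rose by 0.58 on the log2 scale.

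The mRNAs of RNase P and RNase MRP proteins were lower in 10 of 11 genes and higher in 1, and their median log2 fold change was -0.67. POP1, the largest protein of both enzymes, had 2.86 ± 0.0616 FPKM in HR-19011 libraries and 10.9 ± 0.312 FPKM in vehicle libraries (SD, n = 3 each), a log2 fold change of -1.63 (limma adjusted p = 1.91e-09). POP7 fell by 1.21 and RPP21, a protein of RNase P, by 0.67 on the log2 scale. RPP25, which pairs with the POP7 protein, rose by 0.51 on the log2 scale. The counts of this list were the same under each of the 5 other scalings tried.

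The 7SK particle had genes in both directions. Of 7 genes 6 were tested, 1 higher, 2 lower and 3 not called, with a median log2 fold change of -0.03. HEXIM1, which inhibits P-TEFb when bound to 7SK, had 9.90 ± 0.295 FPKM in HR-19011 libraries and 18.9 ± 0.640 FPKM in vehicle libraries (SD, n = 3 each), a log2 fold change of -0.87 (limma adjusted p = 5.68e-08). HEXIM2, the gene of the list that averaged less than 1 FPKM and was not tested, went the other way. It had 1.23, 0.931 and 1.10 FPKM in HR-19011 libraries, against 0.196, 0.673 and 0.575 FPKM in vehicle libraries, without overlap. MEPCE, the enzyme that caps 7SK, fell by 0.27 on the log2 scale. CDK9, the kinase of P-TEFb, rose by 0.27 on the log2 scale, but was not called under TMM scaling over all genes above 0. Under that scaling 5 of the 6 were lower, and after conversion to TPM 3 were higher and 2 lower.

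The subunit mRNAs of the polymerase that makes the 9 transcripts changed unevenly. Of 13 subunit genes listed, 8 were lower and 5 were higher, and their median log2 fold change was -0.41. POLR3G, one of a pair of alternative subunits, had 2.73 ± 0.0361 FPKM in HR-19011 libraries and 16.2 ± 1.44 FPKM in vehicle libraries (SD, n = 3 each), a log2 fold change of -2.20 (limma adjusted p = 2.85e-09). POLR3GL, the other of that pair, had 24.6 ± 0.149 FPKM in HR-19011 libraries and 14.7 ± 0.897 FPKM in vehicle libraries (SD, n = 3 each), a log2 fold change of 0.71 (limma adjusted p = 4.57e-07). The order of the pair per length therefore differed between groups, with POLR3GL above POLR3G in HR-19011 libraries and POLR3G above POLR3GL by vehicle means, whose values overlapped. POLR3K, a subunit that acts in termination, had 10.6 ± 0.669 FPKM in HR-19011 libraries and 46.6 ± 1.68 FPKM in vehicle libraries (SD, n = 3 each), a log2 fold change of -2.04 (limma adjusted p = 1.11e-09). POLR1C, shared with RNA polymerase I, fell by 1.23 on the log2 scale. Under TMM scaling over all genes above 0, 8 subunit genes were lower and 2 higher, POLR3B and POLR3GL, and 3 were no longer called.

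Of 19 genes for promoter factors and the repressor of the polymerase, 14 were lower, 2 higher and 3 not called, with a median log2 fold change of -0.35. Over all tested genes 38.0% were lower and 46.4% higher. SNAPC4, the large subunit of the SNAPc complex used at U6 and 7SK genes, had 5.71 ± 0.295 FPKM in HR-19011 libraries and 11.7 ± 0.306 FPKM in vehicle libraries (SD, n = 3 each), a log2 fold change of -0.92 (limma adjusted p = 9.89e-08). GTF3C6, a subunit of TFIIIC, fell by 0.83, and GTF3A, the factor for 5S ribosomal RNA genes, by 0.71 on the log2 scale. MAF1, the repressor of RNA polymerase III, rose by 0.26 on the log2 scale, but was not called under TMM scaling over all genes above 0. Under that scaling 17 of the 19 were lower and 0 higher.

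**Figure D4:**
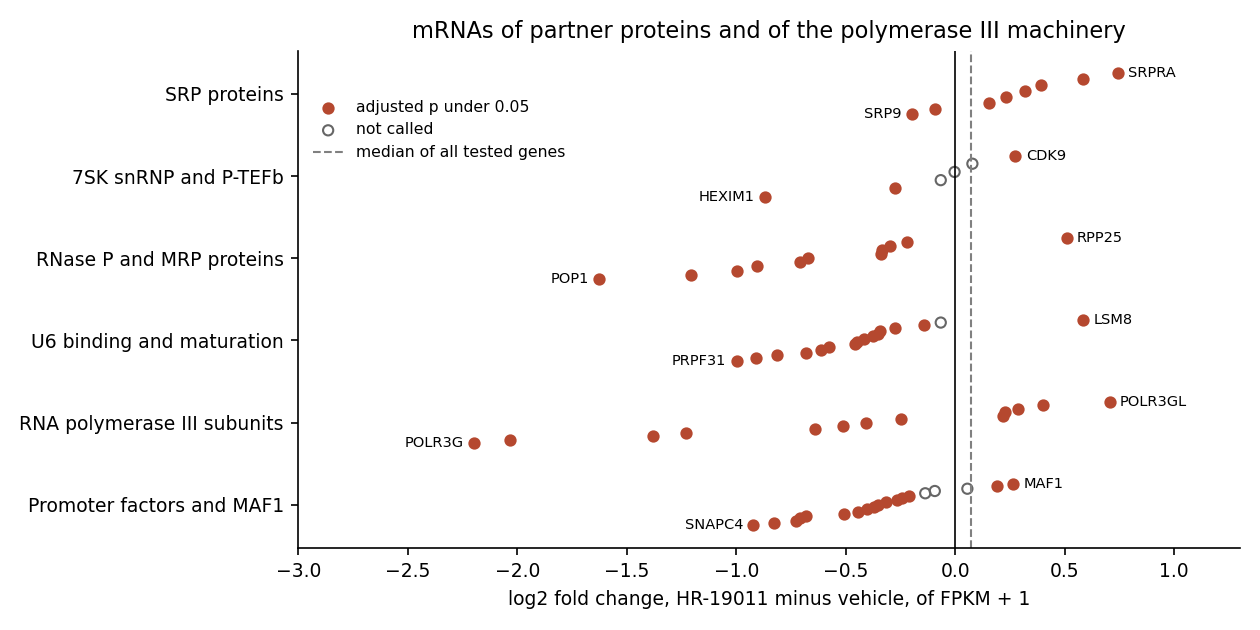
Log2 fold change (HR-19011 minus vehicle, of FPKM + 1) of each tested mRNA in 6 lists, with called genes filled and others open, and the median of all tested genes (0.07) dashed. RNase P and MRP, U6 and promoter factor genes lie mostly left of 0, signal recognition particle genes mostly right of it, and POLR3G (-2.20) and POLR3GL (0.71) mark the ends of the polymerase subunits.

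Other products of RNA polymerase III were hardly listed. Of 20 further genes, among them vault, Y, 5S and SNAR RNAs, 0 reached a mean of 1 FPKM, 4 were listed at 0 in all libraries and the highest mean was 0.855 FPKM. In the fit without the minimum, where 52.0% of genes were called, 3 of these were lower and 3 higher. VTRNA1-3, a vault RNA, had 0.139, 0.254 and 0.216 FPKM in HR-19011 libraries, against 1.42, 1.59 and 1.00 FPKM in vehicle libraries, and was called lower. RN7SL3 and VTRNA2-1 were the other lower ones. The 3 higher ones, SNAR-A1, SNAR-A2 and SNAR-A3, were near the floor, at 0.0273 FPKM or less in HR-19011 libraries and 0 in vehicle libraries. SNAR-A1 and SNAR-A2 had the same value in each library. Of 21 short RNAs made by RNA polymerase II, such as the U1, U2, U4 and U5 genes, 19 were in the files, and their highest mean was 0.199 FPKM. Without the minimum 1 of them, RNVU1-7, was called lower.

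Some tested genes had profiles close to those of the 9 over the 6 libraries. Likeness was the root mean square difference of log2(FPKM + 1), each profile centred on its own mean. The nearest to RN7SL1 were RNU6-4P (0.0465), PPT2 (0.0539) and H2BS1 (0.0546), and to RN7SL2 MIEF1 (0.0887), CDK5R1 (0.0973) and DGUOK-AS1 (0.0983). BCYRN1 was nearest to DHODH (0.0367), PPP1R14A (0.0400) and SNORD29 (0.0413), and RN7SK to S1PR2 (0.0248), ZMAT5 (0.0387) and USE1 (0.0397). For the U6 copies the nearest genes were HYPK (0.0529), FAM133B (0.0554) and PPP2R1B (0.0567) for RNU6-1, RPS10-NUDT3 (0.126), RNF207-AS1 (0.126) and PDCD2L (0.130) for RNU6-2, and HTD2 (0.116), MIR4449 (0.118) and NDUFAF5 (0.119) for RNU6-9. For the called transcripts these profiles share the difference between the groups, while for RN7SK the groups overlapped.

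Summed FPKM was 423885 ± 3632 in HR-19011 libraries and 461938 ± 5487 in vehicle libraries (SD, n = 3 each), and mitochondrial transcripts took 14.2% ± 0.221 of it in HR-19011 libraries and 20.6% ± 0.564 in vehicle libraries. The share of higher genes among called genes was 55.0% as deposited, 41.1% under TMM scaling over all genes above 0, which moved the median of all genes by -0.21, and 62.2% as TPM, which moved it by 0.12. It was 46.3% with quantile normalization, which moved the median by -0.12. RN7SL1, RN7SL2, BCYRN1 and the 3 U6 copies were called lower under each of these, against 50.1% of tested genes lower under TMM scaling over all genes above 0. All 9 erythroid markers were above 10 FPKM in both groups by mean, and 8 of the 9 were lower after HR-19011, from TFRC at -0.16 to KLF1 at -2.70 on the log2 scale, with TAL1 at 0.03 not called (limma adjusted p = 0.474). Of the markers of other marrow cells given here, CD3E, CD14, MPO, ELANE, CD34 and COL1A1 stayed below 1 FPKM in every library. PTPRC, a leukocyte marker, had 20.7 ± 0.972 FPKM in HR-19011 libraries and 10.3 ± 0.325 FPKM in vehicle libraries (SD, n = 3 each), a log2 fold change of 0.94 (limma adjusted p = 6.28e-08). The part of these differences in the values of the 9 transcripts was not tested.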

How the data were processed

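Total RNA of 6 K562 libraries was extracted with TRIzol and made into stranded libraries from polyadenylated RNA, per the labels' protocols. Per the submitters' processing notes, which give no roles, the tools were StringTie 2.1.3b, DESeq2 1.24.0, SAMtools 1.9, Bowtie2, HISAT, HISAT2 2.1.0 and Trimmomatic 0.38, with GRCh38. The deposited values are FPKM per gene, made by the authors, per the file headers; depth is unknown. At the best of many steps, 25.4% to 28.4% of low values lay within 0.1 of a whole multiple, against 20% by chance for 1 fixed step, so reads were not recovered. No 2 libraries were duplicates (at most 0.0208% of nonzero values identical).

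The 9 transcripts and all lists were chosen with earlier results of these data known. Each gene averaging 1 FPKM or more (11856 genes) was tested on log2(FPKM + 1), which understates changes of low genes, with limma 3.58.1 in R 4.3.3, a single term for group, a variance trend and two-sided Benjamini-Hochberg adjusted p at 0.05; 95% intervals are limma's. An exact permutation test of 3 against 3 has a smallest p of 0.1, so none was run. Folds without log2 are ratios of mean FPKM. Named genes were the 9, and up to 4 called genes per protein list with the smallest p and at least 1 per direction. The 3 tested genes nearest to each tested transcript were also named. The other genes named (SRP14, SRP68, SRPRB, HEXIM2, POLR3B, BCYRN1P1, RNU6 and RN7SL copies, SNAR and vault RNAs, RNVU1-7, overlapping genes) were chosen after their values were seen. Spans are from RefSeq for 44698 genes, and strands and sequence comparisons from GENCODE 29; the sequences themselves and 1 marker gene are not reported here. The alternatives were pseudocounts of 0.1 and 5, no minimum, a minimum mean of 5 FPKM, TMM scaling (trims of 30% and 5%), TPM, quantile normalization, equal totals over genes of at least 500 bases, no trend, the replicate block, each library left out and copies summed. Families summed by symbol and TMM over all genes above 0, or without the minimum, were added after seeing the data.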

Additional observations from a re-analysis of the deposited data

How the results depend on the processing

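Over 20 other settings, RN7SL1, RN7SL2, BCYRN1, RNU6-1, RNU6-2 and RNU6-9 kept a lower value past the threshold wherever they were tested. Their log2 fold changes ran from -1.16 to -0.81 for RN7SL1, -1.34 to -0.97 for RN7SL2, -1.76 to -1.04 for BCYRN1, -1.14 to -0.39 for RNU6-1, -1.65 to -0.82 for RNU6-2 and -0.94 to -0.25 for RNU6-9. RN7SK was -0.19 (adjusted p = 0.0850) after quantile normalization, 0.32 (0.0289) after conversion to TPM, 0.23 (0.0392) with equal totals over genes of at least 500 bases, and 0.11 to 0.26 with each library left out; the cause was not tested. Calls among the 9 were 3 with copies summed and 3 with families summed, since fewer features were tested, against 6, and 6 to 7 with each library left out. Called genes of the 7SK list were 5 after TPM, 5 under TMM over all genes above 0 and 5 under TMM without the minimum, against 3. Without the minimum, with or without TMM, 6 other RNA polymerase III transcripts and 1 short RNA of RNA polymerase II were called, against 0, since more genes were tested. Called genes under 500 bases were 147 with a mean of at least 5 FPKM, against 279, since fewer were tested, and 272 to 275 with each library left out. Same-numbered libraries did not deviate together (correlations of -0.03, -0.00 and -0.11). These values gave no sign of pairing by number, but they cannot show that the libraries were unpaired. With the replicate block, 9880 genes were called against 10009, and RN7SK was 0.17 (adjusted p = 0.0447); the other calls among the 9 did not change. The unknown depth and the unstated division of shared reads limit the low values of RMRP and RPPH1 and the values of single copies.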

Other observations

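Transfer RNA genes, the most numerous genes of RNA polymerase III, had low values, and the sum over the nuclear ones was lower after HR-19011. Summed over 403 nuclear tRNA genes, of which 153 were above 0, they had 6.81, 7.91 and 9.87 FPKM in HR-19011 libraries, against 12.4, 13.4 and 12.5 FPKM in vehicle libraries. The 3 treated sums lay below the 3 vehicle sums, and vehicle was 1.56-fold higher by mean. The sum over the 22 mitochondrial tRNA genes, which are not among the nuclear genes of RNA polymerase III, was also lower without overlap. It was 2826 ± 49.2 FPKM in HR-19011 libraries and 5473 ± 248 FPKM in vehicle libraries (SD, n = 3 each), so vehicle was 1.94-fold higher. Single tRNA genes went both ways. Of 22 tested tRNA genes under 500 bases, nuclear or mitochondrial, 14 were lower, 5 higher and 3 not called. Over all tested genes 38.0% were lower and 46.4% higher. The 4 genes annotated as vault RNA summed to 0.457, 0.491 and 0.678 FPKM in HR-19011 libraries, against 2.28, 2.08 and 1.20 FPKM in vehicle libraries, again without overlap. VTRNA1-3 held most of the vehicle sum, with a mean of 1.34 FPKM there. VTRNA1-1 and VTRNA1-2 overlapped between the groups, and VTRNA1-2 was above 0 only in HR-19011 libraries. Of 4 Y RNA genes, 2 were above 0. These sums were chosen after the values were seen and were not tested, and the limit of poly(A) selection holds for them too.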
